A study of Homo sapiens with 40 samples.

Results

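MIR155HG is the host gene of the microRNA miR-155. It was followed by every probe of the array table whose only gene symbol was MIR155HG, which gave 4 of 15246 probes and 1 of 4604 genes. The 40 spotted arrays came from OCI-Ly3 and OCI-Ly10, established human cell lines derived from diffuse large B cell lymphoma of the activated B cell type. Each array set Cy5-labelled cDNA of treated cells against Cy3-labelled cDNA of control cells of the same line, so a positive log2 ratio means more transcript in the treated cells. The log base was not stated and was read as 2.

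The IkB super-repressor, a form of IkB alpha that resists degradation and holds NF-kB in the cytoplasm, was switched on with doxycycline at 20 ng/ml in transfected OCI-Ly3 cells (1, 1.5, 2, 3, 4 and 6 h, 9 arrays) and in transfected OCI-Ly10 cells (1.5, 3, 6 and 24 h, 4 arrays). The Cy3 channel of both held the same transfected cells labelled as control. IL-10 was given at 50 ng/ml to OCI-Ly3 (1, 3, 6, 24, 48 and 96 h, 10 arrays) and IL-6 at 50 ng/ml to OCI-Ly10 (0.5, 1, 3, 6 and 24 h, 8 arrays), each against the line without an added agent in its label. OCI-Ly10 cells received a pool of STAT3 siRNA at 4 uM by electroporation (8, 24 and 48 h, 5 arrays), against cells electroporated without siRNA. A further set of OCI-Ly10 cells received JAK inhibitor I at 5 uM (3 and 6 h, 4 arrays), a blocker of the kinases upstream of STAT3. The titles of these arrays do not say whether the control cells received a vehicle. Doxycycline in cells without the super-repressor, a non-targeting siRNA and a second JAK inhibitor were not analysed here. Effects of doxycycline, of siRNA as such or of the inhibitor on other targets cannot be told apart from those of the intended block.

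MIR155HG, long known as BIC, is transcribed into a noncoding RNA from which the enzymes Drosha and Dicer cut miR-155. In B cells the gene is switched on by antigen receptor and Toll-like receptor signals through NF-kB and AP-1, and miR-155 is abundant in activated B cell-like lymphoma, where it is known to lower the phosphatase SHIP1 (gene INPP5D) and other brakes on signalling. In mouse macrophages stimulated through Toll-like receptors, IL-10 is known to lower miR-155. The arrays measured the host transcript after oligo-dT priming, and the mature microRNA was not measured.

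In RefSeq (GRCh38.p14) MIR155HG lies on the plus strand at chr21:25562145-25575168, over 13024 bases, and the 65-base MIR155 gene lies inside it at chr21:25573980-25574044, 11835 bases after the start of the host gene. The mature products are shown because they are what the host transcript is cut into, with the seed (bases 2 to 8), the stretch that pairs with targets, in capitals.
hsa-miR-155-5p: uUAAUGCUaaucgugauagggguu
hsa-miR-155-3p: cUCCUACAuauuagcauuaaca
The 5p strand lies at chr21:25573983-25574006 and the 3p strand at chr21:25574022-25574043. Each of these seeds was held by 1 of the 2545 mature sequences in the table, so no other listed microRNA shares either.

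The promoter of the host gene is shown because the treatments act through transcription factors that bind such regions. The 300 bases at chr21:25561895-25562194 (plus strand, RefSeq GRCh38.p14) run from 250 bases before the start to 50 bases into the transcript. Capitals mark a match to the AP-1 motif TGANTCA and a match to the TATA box TATAAA.
MIR155HG promoter: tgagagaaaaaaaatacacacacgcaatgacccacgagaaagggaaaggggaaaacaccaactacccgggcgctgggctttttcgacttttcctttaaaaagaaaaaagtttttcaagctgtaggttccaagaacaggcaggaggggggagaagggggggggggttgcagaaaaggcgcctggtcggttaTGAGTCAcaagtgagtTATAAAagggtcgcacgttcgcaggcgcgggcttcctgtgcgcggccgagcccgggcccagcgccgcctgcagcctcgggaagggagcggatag
On both strands, the AP-1 motif matched once, from -60 to -54 relative to the start, as in 7.71% of 35116 promoters of the same length. The TATA box matched once, from -44 to -39, as in 11.5% of promoters. The STAT motif TTCNNNGAA matched once, from -125 to -117 relative to the start (7.66% of promoters). The IRF motif, GAAA repeated after a spacer of 2 bases, matched once, from -213 to -204 (3.57%). The loose kB motif, GGG and CC with 5 bases between, had 1 match on the minus strand, over the start itself, and was held by 58.7% of promoters. No motif overlapped another. These matches describe letters in the window and not bound sites.

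The 4 probes differed in how they responded. Across arrays, probe 19225_1 ran from -1.68 to 1.29 and had a value on 40 of 40 arrays, and probe 32928_1 ran from -1.59 to 1.28 on 39 arrays. Their values correlated at r = 0.973 over the arrays on which both were measured. Probe 34374_1 ran from -0.82 to 0.76 on 40 arrays and correlated with them at r = 0.272 and r = 0.365. Probe 23963_1 ran only from -0.53 to 0.34, correlated with them at r = 0.254 and r = 0.084, and had a value on 31 arrays, 2 of them among the 10 IL-10 arrays. These correlations are descriptions, since the probes share arrays and RNA. The position of each probe along the transcript was not used here. Since the gene mean averages 2 strongly moving probes with 2 that moved little, gene and probe values are given side by side.

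**Figure D1:**
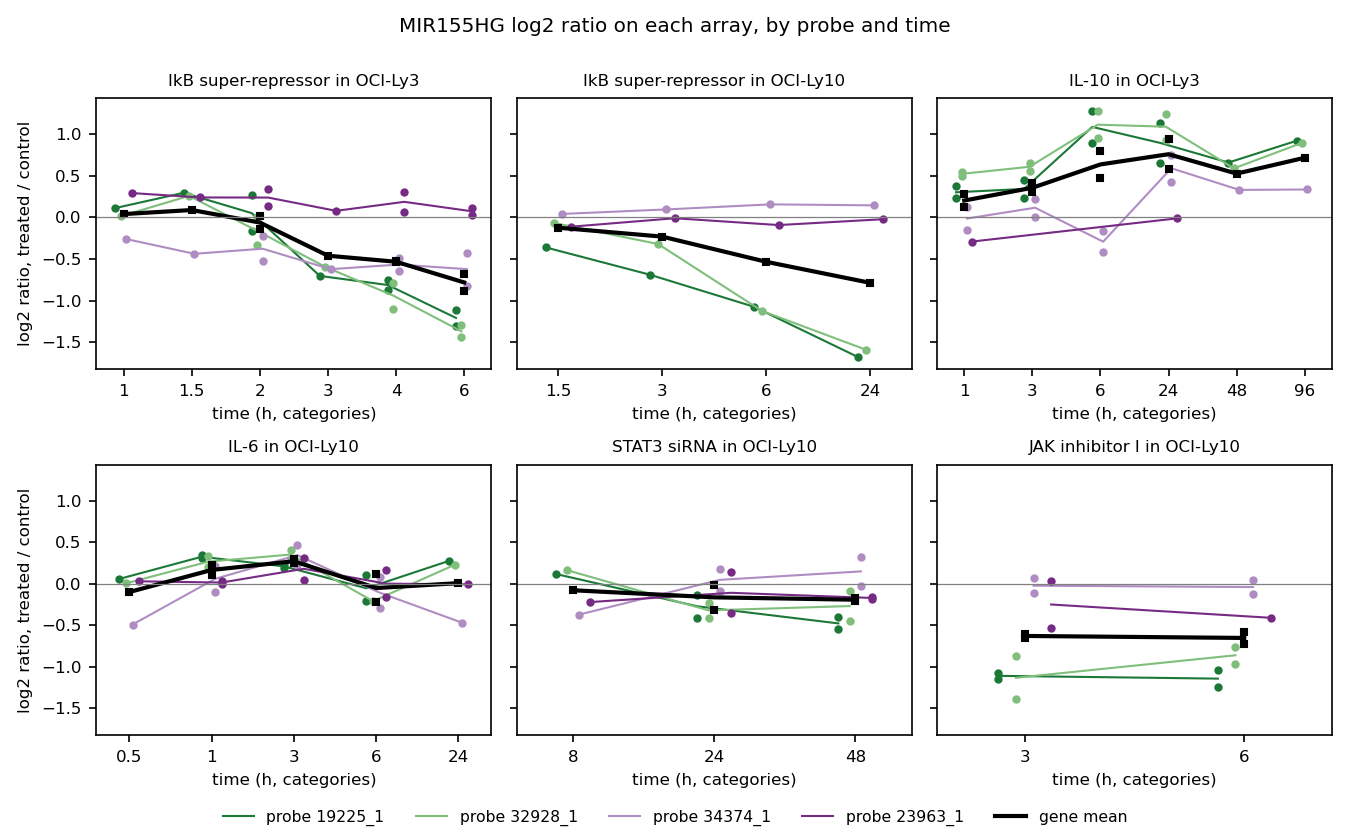
Log2 ratio of treated over control cells (vertical axis) for the 4 MIR155HG probes and their mean on every array, by time in hours (horizontal axis, times as categories), in the 6 experiments. Coloured points are single probes on single arrays, coloured lines join probe means, black squares are gene means of single arrays and the black line joins their means. Probes 19225_1 and 32928_1 fall together after the super-repressor in both lines, to -1.68 and -1.59 at 24 h in OCI-Ly10, sit near -1 under JAK inhibitor I and above 0 after IL-10, while probe 23963_1 stays between -0.53 and 0.34.

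As facts of the whole table, 12.6% of cells were blank, 8862 to 14947 probes had a value on an array, and the SD of the log2 ratios of an array ran from 0.118 to 0.599. Replicate arrays of a time point correlated weakly over all probes (14 pairs, median r = 0.289, lowest r = -0.016 for the OCI-Ly3 super-repressor at 2 h). MIR155HG differed between replicates by a median of 0.152 and at most by 0.355, with the same sign in 12 of 14 pairs. These are unlike measures, and the difference was not computed for other genes. The intended targets moved: STAT3 was at -1.59 ± 0.17 (SE, 4 arrays, limma adjusted p = 6.4e-05) after STAT3 siRNA, and NFKBIA, an NF-kB target that encodes IkB alpha, was at -1.61 ± 0.10 (SE, 7 arrays, adjusted p = 1.21e-08) in OCI-Ly3 and -1.03 ± 0.15 (SE, 3 arrays, adjusted p = 0.00269) in OCI-Ly10 after the super-repressor. NFKBIA probes may also detect the introduced super-repressor RNA, which was not tested. TNFAIP3, the NF-kB target that encodes A20 and has no such overlap, was at -1.19 ± 0.10 and -0.92 ± 0.14 (SE) in these lines. SOCS3, a feedback gene of STAT3, did not fall after STAT3 siRNA (0.19 ± 0.13 SE, adjusted p = 0.438). Under JAK inhibitor I it did not fall either (0.22 ± 0.13 SE, adjusted p = 0.441). It passed as higher after IL-6 (0.77 ± 0.10 SE) and IL-10 (0.28 ± 0.09 SE, adjusted p = 0.0147). The IL-10 call was lost with runs of array identifiers as a random block (adjusted p = 0.0655).

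MIR155HG fell in OCI-Ly3 after the super-repressor was switched on. The gene mean was 0.04 at 1 h and 0.09 at 1.5 h (1 array each), -0.14 and 0.02 on the 2 arrays at 2 h, and -0.46 at 3 h (1 array). It was -0.54 and -0.53 on the 2 arrays at 4 h and -0.68 and -0.88 on the 2 arrays at 6 h. All arrays from 3 h on were below every earlier array. Over 2 to 6 h MIR155HG averaged -0.46 ± 0.06 (SE, 7 arrays), below 0 on 6 of 7, with limma adjusted p = 0.000131, and was the 38th lowest of 4390 genes tested, of which 4.87% passed as lower. At single times the gene passed at 4 h (adjusted p = 0.0292, 0.481% of genes lower) and at 6 h (adjusted p = 0.000239, 1% lower), and not at 1, 1.5, 2 or 3 h. The mean of 4 and 6 h was -0.66, against 0.07 for 1 and 1.5 h, a difference of -0.72 ± 0.14 (SE, adjusted p = 0.0157), where 0.431% of genes passed as lower. That difference did not pass in 4 of 6 fits that left out 1 array (without the 1 h or 1.5 h array, 4 h replicate 1 or 6 h replicate 2), with values of -0.77 to -0.67 and adjusted p up to 0.211.

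In OCI-Ly3, 3 of the 4 probes averaged below 0 over 2 to 6 h. A fall with time was seen in probes 19225_1 and 32928_1. Probe 19225_1 was at 0.11, 0.30 (1 and 1.5 h, 1 array each), -0.16 and 0.27 (2 h), -0.70 (3 h), -0.87 and -0.75 (4 h) and -1.11 and -1.30 (6 h). Probe 32928_1 was at 0.02, 0.26, -0.33 and 0.01, -0.59, -1.10 and -0.79, and -1.30 and -1.44 at the same times. Both crossed from near 0 to strongly negative between 2 and 3 h. Probe 34374_1 was below 0 on all 9 arrays, at -0.26 and -0.44 at 1 and 1.5 h and between -0.82 and -0.22 from 2 to 6 h. Its early values rest on 1 array each and did not pass. Its mean of 4 and 6 h minus that of 1 and 1.5 h (-0.25 ± 0.18 SE) did not pass either. No order in time between the probes is drawn from these values. Over 2 to 6 h the means were -0.67 ± 0.08, -0.77 ± 0.08 and -0.55 ± 0.08 (SE) for these probes in this order, with adjusted p = 2.31e-05, 8.65e-06 and 0.000404 (4.67% of 13287 probes passed as lower). Probe 23963_1 was above 0 on all 7 of these arrays, between 0.03 and 0.34, and did not pass (mean 0.15 ± 0.09 SE, adjusted p = 0.266).

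In OCI-Ly10 the super-repressor lowered MIR155HG as well, with 1 array per time point. At 1.5, 3, 6 and 24 h the gene mean was -0.12, -0.23, -0.53 and -0.79, each lower than the one before. The mean of 6 and 24 h was -0.66, against -0.12 at 1.5 h, a difference of -0.54 ± 0.19 (SE, adjusted p = 1, where 0% of genes passed). Over 3 to 24 h it averaged -0.52 ± 0.09 (SE, 3 arrays, all below 0, adjusted p = 0.0103), the 31st lowest of 4515 genes, of which only 0.31% passed as lower. At single times it passed at 24 h (adjusted p = 0.0415, 0.153% of genes lower). The call rested on few arrays: without the 24 h array the mean was -0.38 (adjusted p = 0.602) and without the 6 h array -0.51 (adjusted p = 0.111). It did not pass with runs of array identifiers as a random block (adjusted p = 0.0913) or after the mean of the other 5 experiments was taken off (-0.39, adjusted p = 0.122).

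Here the response lay in probes 19225_1 and 32928_1. The first was at -0.36, -0.69, -1.07 and -1.68 at 1.5, 3, 6 and 24 h, and the second at -0.07, -0.32, -1.12 and -1.59. Their means over 3 to 24 h were -1.15 ± 0.11 (2.21-fold lower if the base is 2, adjusted p = 5.36e-05, 9th lowest of 14311 probes) and -1.01 ± 0.12 (SE, adjusted p = 0.000124, 18th lowest), where 0.391% of probes passed as lower. Probe 19225_1 kept its call with the random block (adjusted p = 0.00135) and in all 3 fits that left out 1 array, while probe 32928_1 did not pass without the 24 h array (-0.72, adjusted p = 0.101). Probe 34374_1, which was below 0 on every OCI-Ly3 array, was between 0.04 and 0.16 on the 4 OCI-Ly10 arrays. It averaged 0.13 ± 0.12 (SE, adjusted p = 0.975) over 3 to 24 h. Probe 23963_1 was between -0.11 and -0.01.

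At the times shared by both lines (1.5, 3 and 6 h) the gene averaged -0.38 in OCI-Ly3 (4 arrays) and -0.30 in OCI-Ly10 (3 arrays), a difference of -0.09 ± 0.12 (SE, 95% interval -0.35 to 0.17, adjusted p = 0.994). No gene or probe of the table passed in this comparison (0% of 4384 genes). The interval leaves room for a difference in either direction.

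MIR155HG was lower under JAK inhibitor I in OCI-Ly10 at 3 and 6 h. The gene mean was -0.60 and -0.65 on the 2 arrays at 3 h and -0.58 and -0.72 on the 2 arrays at 6 h, so the 4 arrays lay close together and all below 0. The average was -0.64 ± 0.08 (SE, 1.56-fold lower if the base is 2, adjusted p = 0.000126), the 15th lowest of 4480 genes, of which 2.17% passed as lower and 1.09% as higher. The gene passed at each time alone, with adjusted p = 0.014 at 3 h (0.16% of genes lower) and 0.00285 at 6 h (2.39% lower), and the 6 h mean differed from the 3 h mean by -0.02 ± 0.16 (SE, 95% interval -0.36 to 0.31, adjusted p = 0.997), a comparison in which 0% of genes passed.

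Under the inhibitor, probe 19225_1 was at -1.07 and -1.14 at 3 h and at -1.04 and -1.24 at 6 h. Probe 32928_1 was at -0.87 and -1.39 at 3 h and at -0.76 and -0.96 at 6 h. These were the 5th and 10th lowest of 13915 probes, at -1.12 ± 0.10 (adjusted p = 1.31e-06) and -0.995 ± 0.10 (SE, adjusted p = 1.37e-05), where 2.29% of probes passed as lower. Probe 34374_1 lay between -0.13 and 0.07, with a mean of -0.03 ± 0.10 (adjusted p = 0.923). Probe 23963_1 was at -0.53, 0.03 and -0.41 on the 3 arrays that measured it, and did not pass (-0.33 ± 0.14 SE, adjusted p = 0.216).

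At 3 and 6 h in OCI-Ly10 the super-repressor left the gene at -0.38 (2 arrays) and the JAK inhibitor at -0.64 (4 arrays). The difference of 0.26 ± 0.14 (SE, 95% interval -0.03 to 0.55, adjusted p = 0.904) did not pass, in a comparison where 0.316% of genes passed in either direction. The labels do not say whether these arrays shared control RNA.

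STAT3 siRNA left MIR155HG slightly below its control, short of the threshold. The gene mean was -0.08 at 8 h (1 array), -0.32 and -0.01 at 24 h and -0.17 and -0.21 at 48 h, with all 5 arrays below 0. Over 24 and 48 h it averaged -0.18 ± 0.08 (SE, 4 arrays, 95% interval -0.34 to -0.01, adjusted p = 0.206), where 2.05% of genes passed as lower and 1.27% as higher. The 8 h value of probe 19225_1 was 0.12, its 24 h values were -0.41 and -0.13 and its 48 h values -0.405 and -0.55, and its mean of -0.37 ± 0.10 (SE) passed (adjusted p = 0.039, 2.53% of probes lower). This call was lost in each of the 4 fits that left out 1 array (adjusted p 0.0524 to 0.279) and with the random block (adjusted p = 0.113). For probe 32928_1 they were 0.16 (8 h), -0.41 and -0.23 (24 h), and -0.09 and -0.45 (48 h), with a mean short of the threshold ( -0.29 ± 0.10 SE, adjusted p = 0.0996). The other probes averaged 0.10 ± 0.10 (34374_1) and -0.14 ± 0.11 (23963_1, SE) and did not pass. The 48 h mean minus the 8 h value was -0.11 ± 0.19 (SE, adjusted p = 0.831, 0.118% of genes in either direction).

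IL-10 raised MIR155HG in OCI-Ly3. The gene mean was 0.29 and 0.12 at 1 h, 0.41 and 0.30 at 3 h, 0.80 and 0.475 at 6 h, 0.94 and 0.58 at 24 h (2 arrays each), 0.53 at 48 h and 0.72 at 96 h (1 array each). Every array was above 0, and the lowest were those at 1 h and 3 h. The average over 1 to 96 h was 0.53 ± 0.05 (SE, 10 arrays, 1.45-fold if the base is 2, adjusted p = 2.08e-07), the 101st highest of 4383 genes. IL-10 moved many genes, with 16.1% passing as higher. The gene passed at 6 h (adjusted p = 0.00107, 3.08% of genes higher), at 24 h (0.000107, 5.46%) and at 96 h (0.00389, 8.41%), and not at 1, 3 or 48 h (adjusted p = 0.786, 0.0868 and 0.0544). The mean of 24, 48 and 96 h was 0.67, against 0.20 at 1 h, a difference of 0.47 ± 0.14 (SE, adjusted p = 0.0448, 5.31% of genes higher). It did not pass in 4 of 6 fits that left out 1 array (without either 1 h array, the 96 h array or 24 h replicate 1), with values of 0.38 to 0.55 and adjusted p up to 0.314.

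The same probe pair carried the rise. Probe 19225_1 was at 0.23 and 0.37 at 1 h, 0.46 and 0.23 at 3 h, 1.29 and 0.89 at 6 h, 1.14 and 0.655 at 24 h, 0.66 at 48 h and 0.92 at 96 h. Probe 32928_1 was at 0.50 and 0.545, 0.56 and 0.66, 1.28 and 0.95, 1.25 and 0.935, 0.59 and 0.90 at these times. By time means both were highest at 6 h, followed by 96 h for the first and 24 h for the second. Their window means were 0.70 ± 0.07 (adjusted p = 7.62e-08) and 0.81 ± 0.07 (SE, adjusted p = 2.83e-08), where 17.1% of probes passed as higher. Probe 34374_1 was below 0 on both 6 h arrays (-0.16 and -0.42) and above 0 on the 4 arrays from 24 h on (0.33 to 0.76). Its mean of 0.18 ± 0.07 (SE, adjusted p = 0.0554) did not pass. Probe 23963_1 was measured on 2 IL-10 arrays only, at -0.29 (1 h) and -0.01 (24 h), and was not tested. On those 2 arrays the gene mean rests on 4 probes and on the other 8 IL-10 arrays on 3. With probe 23963_1 left out throughout, an alternative chosen after seeing the data, the IL-10 mean was 0.56.

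IL-6 in OCI-Ly10 did not move MIR155HG past the threshold. The gene mean was -0.10 at 0.5 h (1 array), 0.11 and 0.22 at 1 h, 0.29 and 0.25 at 3 h, 0.12 and -0.22 at 6 h (2 arrays each) and 0.01 at 24 h (1 array). The 4 arrays at 1 and 3 h lay above 0, and the arrays at 6 h fell on both sides of it. Over 1 to 24 h the mean was 0.10 ± 0.06 (SE, 7 arrays, 6 of 7 above 0, 95% interval -0.03 to 0.23, adjusted p = 0.364), where 3.48% of 3301 genes passed as higher and 1.06% as lower. It passed only after the mean of the other 5 experiments was taken off (0.35, adjusted p = 0.00593), an adjustment that subtracts an average below 0 and so raises the IL-6 value. The window means of single probes ran from -0.04 (34374_1) to 0.19 (19225_1), and none passed (1.78% of probes higher). The mean of 6 and 24 h was -0.02, against 0.03 at 0.5 and 1 h (difference -0.06 ± 0.14 SE, adjusted p = 0.991, 0.378% of genes in either direction). SOCS3, a feedback gene that STAT3 induces, was at 0.77 ± 0.10 (SE, adjusted p = 0.00026) on the same arrays.

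**Figure D2:**
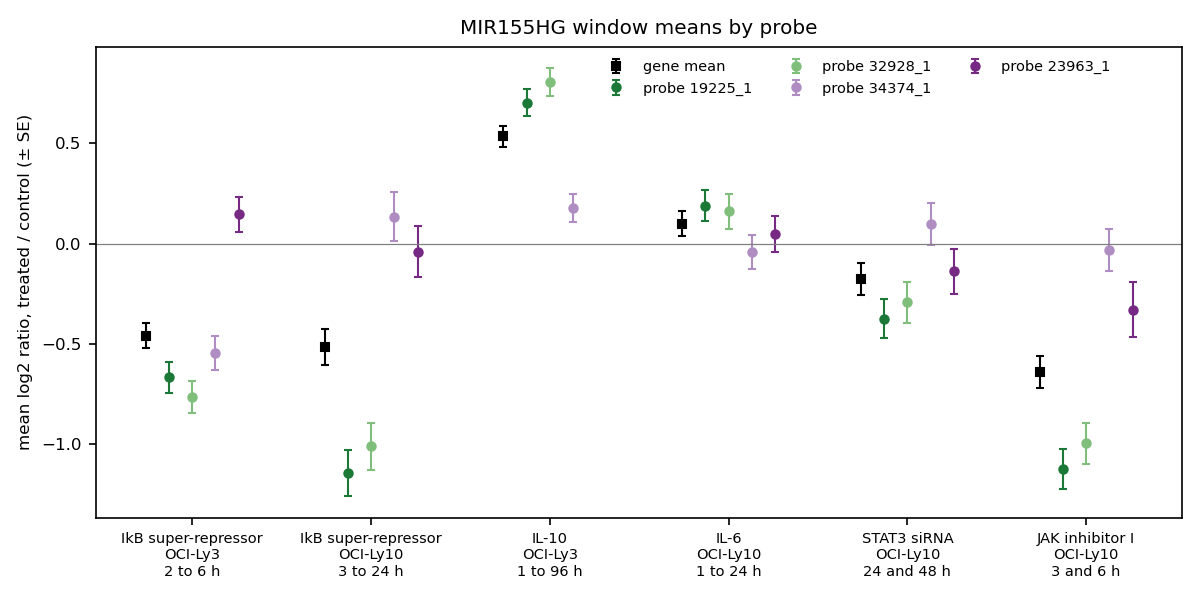
Mean log2 ratio, treated over control (vertical axis), over each tested window of times, for the gene mean (black squares) and the 4 probes (coloured points) in the 6 experiments (horizontal axis). Bars are SE from the limma fit. Probes 19225_1 and 32928_1 lie at -1.15 and -1.01 for the super-repressor in OCI-Ly10, at -1.12 and -0.995 for JAK inhibitor I and at 0.70 and 0.81 for IL-10, while probe 34374_1 departs downward only for the super-repressor in OCI-Ly3, at -0.55.

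Tests of differences between experiments were made at shared times. IL-10 in OCI-Ly3 averaged 0.49 (8 arrays) and IL-6 in OCI-Ly10 0.10 (7 arrays) over 1, 3, 6 and 24 h, a difference of 0.39 ± 0.08 (SE, adjusted p = 0.00556), where 3.9% of genes passed as higher. The same probes differed by 0.47 (0.00804) and 0.68 (0.000739), where 3.92% of probes passed as higher. This comparison differs in both cytokine and line, which cannot be told apart. It just missed the threshold with arrays scaled to equal spread (0.30, adjusted p = 0.0503) and with the random block of runs (adjusted p = 0.0572). JAK inhibitor I averaged -0.64 and IL-6 0.11 over 3 and 6 h in OCI-Ly10 (4 arrays each), a difference of -0.75 ± 0.11 (SE, adjusted p = 0.00104, 1.57% of genes lower). The 4 inhibitor arrays all lay below the 4 IL-6 arrays. Probes 19225_1 and 32928_1 differed by -1.20 (adjusted p = 6.64e-05) and -1.07 (0.000917), where 1.38% of probes passed as lower. IL-10 averaged 0.40 (6 arrays) and the super-repressor -0.40 (4 arrays) over 1, 3 and 6 h in OCI-Ly3, a difference of 0.80 ± 0.11 (SE, adjusted p = 6.96e-05, 2.21% of genes higher). The same probes differed by 1.18 (8.54e-06) and 1.4 (2.15e-06), where 1.95% of probes passed as higher.

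Ordered over all 26 experiment and time groups, MIR155HG was lowest after the super-repressor at 24 h in OCI-Ly10 (-0.79) and at 6 h in OCI-Ly3 (-0.78), then under JAK inhibitor I at 6 h (-0.65) and 3 h (-0.63). Next came the super-repressor at 6 h in OCI-Ly10 and 4 h in OCI-Ly3 (both -0.53) and at 3 h in OCI-Ly3 (-0.46). The top 5 groups were IL-10 at 24 h (0.76), 96 h (0.72), 6 h (0.64), 48 h (0.53) and 3 h (0.36), and all 6 IL-10 groups were above 0. In all, 15 groups were below and 11 above 0. None of the 25 gaps between neighbours in this order exceeded 2 SE of the gap. The widest, 0.23 between -0.46 and -0.23 (3 h of the super-repressor in OCI-Ly3 and in OCI-Ly10), was 1.03 times its SE. Because the groups were sorted by these same values, small gaps between neighbours are built in. The gaps therefore do not test whether groups differ.

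**Figure D3:**
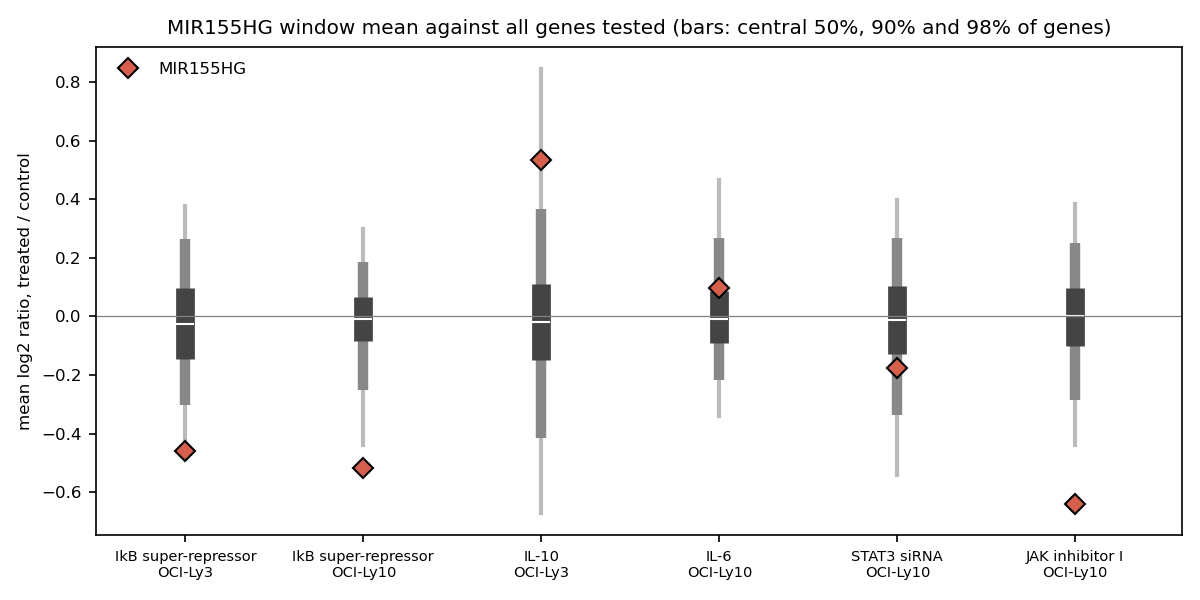
Window mean log2 ratio, treated over control (vertical axis), of MIR155HG (red diamonds) in the 6 experiments (horizontal axis) against all genes tested there. Grey bars span the central 50%, 90% and 98% of genes from dark to light, with a white line at the median. MIR155HG lies below the lowest bar end for both super-repressor experiments and for JAK inhibitor I, at -0.46, -0.52 and -0.64, in the upper light bar for IL-10, at 0.53, and inside the 90% bar for IL-6 and STAT3 siRNA, at 0.10 and -0.18.

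The genes whose 26 group means were most like those of MIR155HG were KIAA0753 (r = 0.913), GPR183 (r = 0.892), BCL3 (r = 0.871), IL2RB (r = 0.861), PIM2 (r = 0.857) and SOCS2 (r = 0.855), out of 676 genes with a value in every group and an SD over groups of at least 0.25. The median r of the 676 was -0.037 and the 95th percentile 0.753. These are descriptions over groups that share arrays and treatments. Of the 6, 2 were also among the top 6 by Spearman correlation and 4 among the top 6 over single arrays. KIAA0753, a protein of centrosomes and cilia, stayed closest in size, at -0.43 after the super-repressor in OCI-Ly3 (adjusted p = 0.000781), 0.46 after IL-10 (6.98e-06) and -0.49 under the JAK inhibitor (0.00324). After the super-repressor in OCI-Ly10, where MIR155HG passed, KIAA0753 did not (-0.39, 0.143). After STAT3 siRNA KIAA0753 was at 0.03 (0.895). GPR183, the oxysterol receptor that positions B cells in follicles, was at 3.13 after IL-10 (adjusted p = 6.44e-15), 0.72 after IL-6 (0.000547) and -0.80 under the inhibitor (0.00169). It also fell after STAT3 siRNA (-0.73, 0.00562), where MIR155HG did not pass.

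BCL3, a nuclear IkB protein and STAT3 target, was at 1.64 after IL-10 (adjusted p = 2.36e-13), 0.79 after IL-6 (7.85e-06) and -0.76 under the JAK inhibitor (0.000126), with no call after the super-repressor in OCI-Ly3 (-0.08, 0.449) or OCI-Ly10 (-0.26, 0.612). PIM2, a survival kinase and NF-kB target, was at -0.64 (adjusted p = 0.00563) in OCI-Ly3 and -1.003 (0.0212) in OCI-Ly10 after the super-repressor, and at 0.50 after IL-10 (0.00239), with -0.44 (0.195) under the inhibitor. With runs as a random block its falls did not pass (adjusted p = 0.0599 and 0.236). SOCS2, a feedback inhibitor of cytokine signalling, was at -0.72 (0.000145) after the super-repressor in OCI-Ly3 and 1.91 (2.66e-12) after IL-10. Unlike MIR155HG, SOCS2 also passed as lower after STAT3 siRNA (-0.65, 0.00854), a call lost with the random block (0.0557). SOCS2 had no call under the inhibitor (-0.25, 0.34) or after the super-repressor in OCI-Ly10 (-0.28, 0.827), where MIR155HG passed. IL2RB, a receptor chain of IL-2 and IL-15, was at 0.76 (3.85e-07) after IL-10 and 0.75 (0.000155) after IL-6. Of the 6, GPR183, BCL3 and IL2RB passed after IL-6, and KIAA0753, PIM2 and SOCS2 after the super-repressor in OCI-Ly3. The most opposite genes were ARHGEF3, an exchange factor for RhoA (r = -0.853), RUBCNL, an autophagy regulator (r = -0.847), and CD24, a B cell surface glycoprotein (r = -0.827). After IL-10 they were at -1.10, -0.44 and -0.71, and after the super-repressor in OCI-Ly3 at 0.57, 0.35 and 0.38, each past the threshold. With the random block the rises of RUBCNL and CD24 did not pass (adjusted p = 0.08 and 0.0538).

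**Figure D4:**
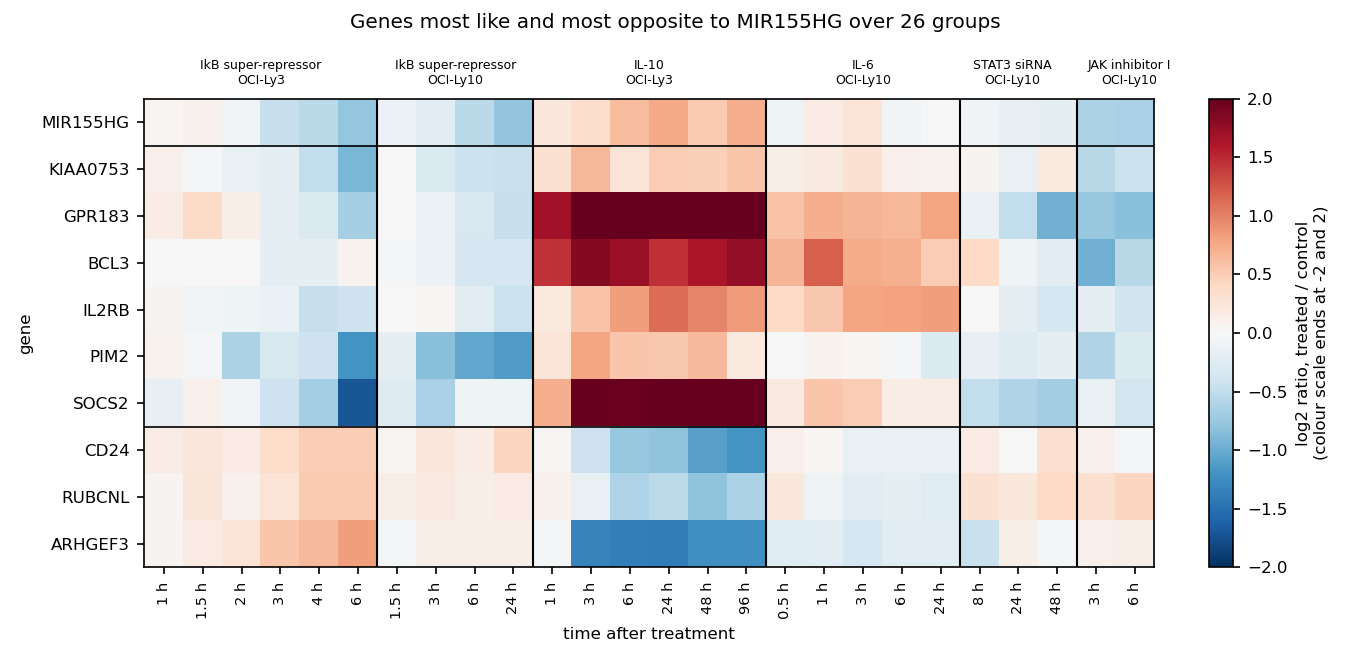
Group mean log2 ratios, treated over control (colour, blue lower and red higher in treated cells, scale ending at -2 and 2) of MIR155HG, the 6 genes most like it and the 3 most opposite (rows) in 26 experiment and time groups (columns, time in hours). MIR155HG and KIAA0753 keep similar sizes in most blocks, but part at 48 h of STAT3 siRNA (-0.192 and 0.2). GPR183, BCL3 and SOCS2 reach deeper red after IL-10. ARHGEF3, RUBCNL and CD24 are red from 3 h of the super-repressor in OCI-Ly3, where MIR155HG is blue. They are blue from 3 h of IL-10, where MIR155HG is red.

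Known regulators of the host gene, 18 of which were measured, changed most after IL-10. There 11 rose and 3 fell (16.1% and 19.2% of all genes), and the median of the list was 0.27, against -0.02 for all genes. The largest rises were in STAT3 itself (1.37 ± 0.11 SE, adjusted p = 1.45e-08), in the AP-1 members JUN (0.94, 6.95e-10) and JUNB (0.94, 4.17e-12), and in MYB (0.54, 2.35e-08), a transcription factor of progenitor cells. ETS2 fell (-0.66, 6.14e-08). Of the NF-kB subunits, named here after their values were seen, NFKB1 (-0.40, 0.00619) and REL (-0.34, 0.00147) were lower and RELB (0.38, 9.66e-05) higher. The NFKB1 value was not particular to IL-10. NFKB1 was at -0.36 (0.0549) after the super-repressor in OCI-Ly3, -0.48 (0.513) in OCI-Ly10 and -0.39 (0.0719) after IL-6, below 0 on all arrays of these windows. Whether its spots carry a dye bias was not tested. In OCI-Ly3 the super-repressor lowered 4 of 18 (4.87% of all genes), among them IRF4, a factor that activated B cell-like lymphoma depends on (-0.45, 0.00702), and the NF-kB subunits RELB (-0.38, 0.00295) and NFKB2 (-0.29, 0.0024). It raised ETS2 (0.29, 0.0113).

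In OCI-Ly10, BATF, an AP-1 partner, was the regulator that fell with both blocks: -0.74 (adjusted p = 0.00498) after the super-repressor, where 1 of 18 passed, and -0.56 (0.00473) under the JAK inhibitor, where STAT3 fell as well (-0.69, 0.0264). After STAT3 siRNA only STAT3 passed (-1.59). After IL-6, JUN (0.38, 0.0048), JUNB (0.36, 0.0004) and JUND (0.26, 0.0472) rose, without a called change of the host gene. With runs as a random block these counts were 10 and 3 for IL-10, 0 rises and 3 falls for the super-repressor in OCI-Ly3, none in OCI-Ly10, 1 rise for IL-6 and 1 fall each for the siRNA and the inhibitor.

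Of 16 measured NF-kB targets, 13 fell and none rose after the super-repressor in OCI-Ly3, and 7 fell and 1 rose in OCI-Ly10 (medians -0.49 and -0.19, against -0.03 and -0.01 for all genes). Of all genes, 4.87% fell and 9.16% rose in OCI-Ly3, and 0.31% fell and 0.221% rose in OCI-Ly10. MIR155HG at -0.46 and -0.52 lay near the median of the list in OCI-Ly3 and below it in OCI-Ly10. Under the JAK inhibitor 3 of 16 fell (2.17% of all genes), namely CCL4 (-0.80, adjusted p = 0.000187), CCL3 (-0.48, 0.0167) and BCL2A1 (-0.27, 0.0399), while NFKBIA was at -0.04 (0.949) and TNFAIP3 at -0.09 (0.812). After IL-10, 6 rose and 5 fell (16.1% and 19.2% of all genes), with PIM2 at 0.50 and TNFAIP3 at 0.47 (0.000185) on one side and TNF at -1.54 (5.56e-14) and LTA at -1.40 (3.13e-06) on the other. After IL-6, 3 fell (1.06% of all genes), and after STAT3 siRNA 2 rose (1.27% of all genes; CCL4 at 0.80, 0.000487, and CCL3 at 0.48, 0.0207). With the random block, falls numbered 9 in OCI-Ly3, 3 in OCI-Ly10, 2 under the inhibitor and 2 after IL-6, and 1 rise passed after the siRNA.

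Of 9 STAT3 targets, 8 rose after IL-10 (median 0.78; 16.1% of all genes), led by PTPN1 (1.89, adjusted p = 1.47e-13), PRDM1, the plasma cell regulator (1.88, 4.85e-12), and BCL3. After IL-6, 4 rose (median 0.20; 3.48% of all genes), among them BCL3 and SOCS3, and the JAK inhibitor lowered 2 (2.17% of all genes), BCL3 and MCL1 (-0.28, 0.0332). STAT3 siRNA lowered 1 (2.05% of all genes), BCL6 (-0.27, 0.0487), and no member passed after the super-repressor in OCI-Ly3 or OCI-Ly10. On those arrays the window means of STAT3 targets lay between -0.40 and 0.14. With the random block 7 rises passed after IL-10 and 3 after IL-6, BCL3 alone under the inhibitor and none after the siRNA.

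Published targets of miR-155 were read beside the host gene. Where MIR155HG fell, the counts of risen targets were too small to be read as a result about the targets. After the super-repressor in OCI-Ly3 2 of 25 rose, near the share of all genes (9.16%). They were RHOA, a small GTPase, at 0.31 (adjusted p = 0.00684), and CEBPB, a transcription factor, at 0.17 (0.0458). In OCI-Ly10 1 of 26 rose (S1PR1, a receptor that guides lymphocyte exit, at 0.57, 0.028; 0.221% of all genes), and under the JAK inhibitor CEBPB rose (0.31, 0.0172) and MYD88, a Toll-like receptor adaptor, fell (-0.42, 0.0172), where 1.09% of all genes rose and 2.17% fell. With runs as a random block none of these rises passed (adjusted p 0.0536 to 0.212), while the fall of MYD88 did (0.0358). Medians were 0.01, 0.02 and -0.01, against -0.03, -0.01 and 0.00 for all genes. Where MIR155HG rose, after IL-10, 5 of 26 rose and 7 fell (16.1% and 19.2% of all genes; 4 and 5 with the random block), with a median of -0.03 against -0.02.

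Falls after IL-10 included ETS1 (-0.65, adjusted p = 1.3e-06), PELI1, a ubiquitin ligase (-0.50, 0.00324), and SMAD5 (-0.47, 0.00105), and rises SATB1, a chromatin organizer (0.62, 3.89e-06), and IL13RA1, a receptor chain of IL-13 (0.37, 8.86e-06). INPP5D, chosen here after its value was seen for its known role in these lymphomas, was at -0.10 (0.0486), and at 0.155 with the random block it did not pass. ETS1 also fell after IL-6 (-0.39, 0.013; 1 of 23, against 1.06% of all genes), a call lost with the random block (0.0752), and no target passed after STAT3 siRNA (0 of 26 by limma). The arrays give no protein levels, at which microRNAs also act.

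**Figure D5:**
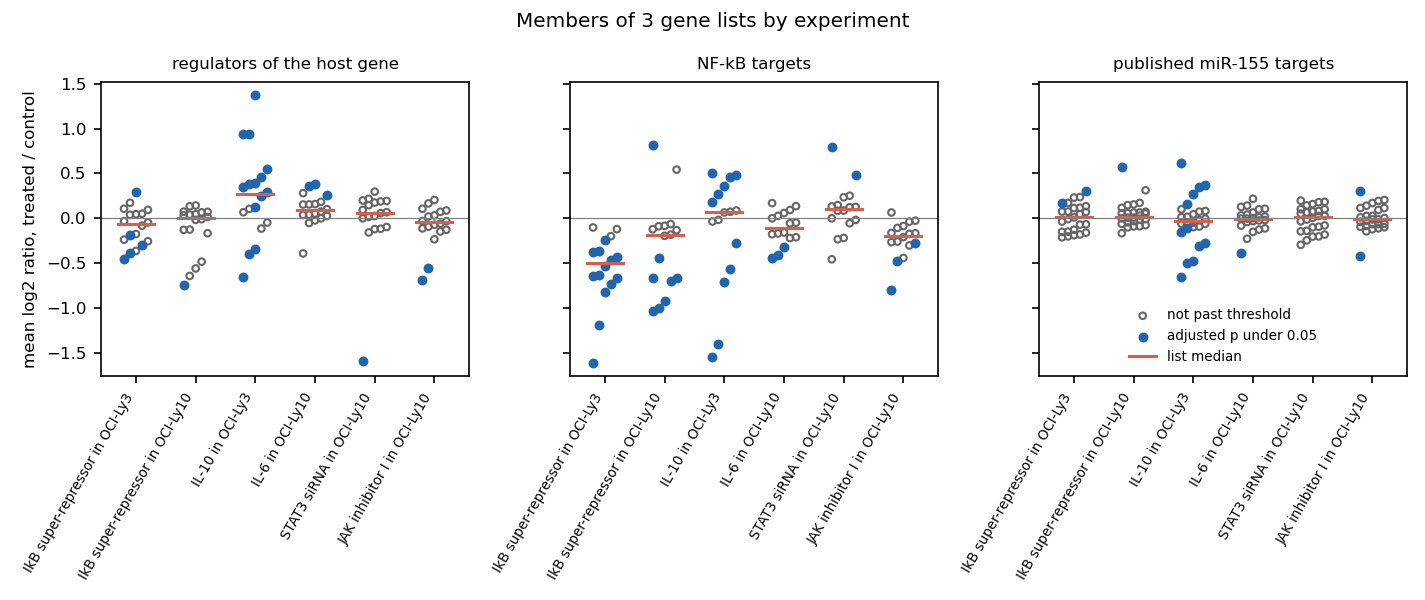
Window mean log2 ratios, treated over control (vertical axis), of single genes in 3 lists (panels), by experiment (horizontal axis). Filled blue points passed an adjusted p of 0.05, open points did not, and red lines are list medians. Regulators of the host gene spread upward after IL-10 (median 0.27), NF-kB targets lie low after the super-repressor in OCI-Ly3 (median -0.49), and published miR-155 targets stay centred near 0 in every experiment (medians -0.03 to 0.02).

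Of 6 measured microRNA processing genes, at most 2 passed in an experiment. After IL-10 1 rose and 1 fell (16.1% and 19.2% of all genes), 1 rose after the super-repressor in OCI-Ly3 (9.16%) and after IL-6 (3.48%), and 1 fell under the inhibitor (2.17%). RAN, the GTPase of nuclear export, was at 0.28 (adjusted p = 0.0164) after the super-repressor in OCI-Ly3 and 0.20 (0.0159) after IL-10, where PRKRA, a Dicer partner, was at -0.14 (0.03). AGO2, the slicer, was at 0.31 (0.0083) after IL-6, and DDX5, a Drosha cofactor, at -0.32 (0.0248) under the JAK inhibitor. None of these passed with the random block. Of 3 other measured microRNA host genes, DLEU2 fell after IL-10 (-0.23, 0.00308; 19.2% of all genes) and none passed elsewhere.

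Ratios of 2 dyes give no level, so the lines could not be checked against B cell markers, and markers were read as differences. In 5 experiments no member of the lists for T and NK cells, myeloid cells or erythroid and stromal cells passed. After IL-10, where MIR155HG rose and 16.1% of all genes rose and 19.2% fell, 5 passed: CD14 (0.60, adjusted p = 0.000149), CD68 (0.19, 0.000956), CD4 (0.26, 0.0175) and CD3E (0.17, 0.00314) were higher and VIM (-0.23, 0.00172) lower. Of 7 measured B cell markers, CD79A was lower there (-0.34, 0.00277) and CD22 and CD74 higher, PAX5 was lower and BLNK higher after the super-repressor in OCI-Ly3 (-0.22, 0.0274, and 0.26, 0.026), and CD79B was higher under the JAK inhibitor (0.68, 0.00398). With the random block CD4, CD74, PAX5 and BLNK did not pass (adjusted p = 0.0756, 0.062, 0.148 and 0.145). Their part in the MIR155HG values was not tested.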

How the data were processed

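Each of the 40 arrays came with 1 deposited value per spot, a log ratio of the Cy5 over the Cy3 channel that was taken as log2. Per the labels' protocols, total RNA was copied from oligo-dT primers, with Cy5 on treated and Cy3 on control cells. The largest deposited value was 5.81 and the lowest -7.868, too wide for base 10, and a natural base could not be told from base 2. Medians of arrays between -0.031 and 0.011 show that the deposited ratios were already centred. How background was subtracted, spots filtered and ratios normalized is not given in the sources used here. The signal over background of the spots is unknown, as intensities were not used. Without a dye swap, a dye bias of a spot stays in its ratio.

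Arrays were median-centred, and the 10169 of 15246 probes with 1 gene symbol in the platform annotation were averaged by gene (5073 unnamed probes and 4 with several symbols were not). In limma 3.58.1 (R 4.3.3) all arrays entered a single model holding a mean for each of 26 experiment and time groups. Averages over a window were tested two-sided against 0. A gene was tested with a value at every time of the window and on 75% or more of its arrays. P-values were adjusted by Benjamini-Hochberg over all genes tested and called below 0.05. The same model was fitted to all probes. For a time with 1 array the spread comes from the other groups. The spread of control RNA does not enter a test against 0. The labels do not state separate cultures for replicates, so the p-values may reflect technical spread alone. Intervals are 95%. The fit was tested on simulated data.

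Named genes were MIR155HG and its probes, the 6 most and 3 least correlated genes over group means, NFKBIA, TNFAIP3, STAT3 and SOCS3, and of each list up to 5 called members with the largest means. The gene, its probes, the 10 lists and the tests were chosen with earlier results of these data known. Deviations of same-numbered replicates from their group means correlated across time points at r 0.376 to 0.577 for IL-10 and 0.193 to 0.269 for IL-6. For the OCI-Ly3 super-repressor these correlations ran from -0.319 to 0.320. The siRNA and inhibitor arrays gave 1 such correlation each (0.299 and 0.203). The main model did not pair replicates by number. A replicate block, used only as an alternative, added a term for replicate number in every experiment except the super-repressor in OCI-Ly10. Titles carry array identifiers that form 12 runs (split at gaps above 50), with no meaning given in the labels. All 14 replicate pairs lay in different runs, and a random block for the run (consensus correlation 0.2687) was an alternative, as were scaling, other probe summaries and leaving out arrays. Sequences and gene positions came from RefSeq tables (GRCh38.p14), matched by symbol and microRNA name.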

Additional observations from a re-analysis of the deposited data

Results flagged for a closer look

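Between the lines, 2 single probes took opposite signs after the super-repressor: every OCI-Ly3 array lay on one side of 0 and every OCI-Ly10 array on the other at 1.5, 3 and 6 h. Probe 34374_1 was negative in OCI-Ly3 and positive in OCI-Ly10, with a difference of -0.659 on the log2 scale. Probe 23963_1 was positive in OCI-Ly3 and negative in OCI-Ly10, with a difference of 0.202. The difference itself did not pass for either probe (limma adjusted p = 0.993 each), and 0 of 13137 probes passed in this comparison.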

How the results depend on the processing

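Without counting fits that left out an array, 206 of 231 alternative values for MIR155HG kept their direction and their side of the threshold, or stayed uncalled. That total includes results uncalled in the main fit. Among called window means, 16 of 17 were kept for the super-repressor in OCI-Ly3 and 10 of 14 in OCI-Ly10. For IL-10 it was 14 of 15 and for the inhibitor 13 of 15. Late minus early kept 9 of 13 (super-repressor in OCI-Ly3) and 7 of 12 (IL-10). Of the called differences, IL-10 minus IL-6 kept 9 of 12, inhibitor minus IL-6 11 of 13 and IL-10 minus super-repressor 11 of 12. Single probes departed from the gene mean: after the super-repressor, 23963_1 was at 0.15 in OCI-Ly3 and -0.040 in OCI-Ly10, and 34374_1 at 0.13 in OCI-Ly10. Probe 34374_1 also missed the threshold for IL-10 (0.18), JAK inhibitor I (-0.031), IL-10 minus IL-6 (0.14), inhibitor minus IL-6 (-0.15) and IL-10 minus super-repressor (0.44), and 23963_1 for the inhibitor (-0.33) and inhibitor minus IL-6 (-0.42). Probe 19225_1 passed for STAT3 siRNA (-0.37), where the gene mean did not, and turned to 0.035 after the mean of the other 5 experiments was taken off. That step ended the call of the super-repressor in OCI-Ly10 (-0.39) and made one of IL-6 (0.35). Scaling arrays to equal spread ended the call of IL-10 minus IL-6 (0.30) and of late minus early for the super-repressor in OCI-Ly3 (-0.69) and IL-10 (0.29). Fits on the arrays of that experiment alone ended the late minus early calls too (-0.72, adjusted p = 0.168, and 0.47, adjusted p = 0.251), as did single probes for the super-repressor in OCI-Ly3 (-0.14 for 23963_1, -0.25 for 34374_1) and for IL-10 (0.52, 0.34 and 0.43 for 19225_1, 32928_1 and 34374_1). Such a fit could not be made for the super-repressor in OCI-Ly10, which has 1 array per time. The causes were not tested.

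With runs of array identifiers as a random block, the super-repressor in OCI-Ly10 (-0.52, adjusted p = 0.0913) and IL-10 minus IL-6 (0.40, adjusted p = 0.0572) lost their calls. Leaving out 1 array gave -0.66 to -0.38 for the super-repressor in OCI-Ly10, -0.77 to -0.67 for late minus early in OCI-Ly3 and 0.38 to 0.55 for late minus early of IL-10, with calls lost. The replicate block changed no call of MIR155HG (super-repressor in OCI-Ly3 -0.46, adjusted p = 0.000173; IL-10 0.53, 6.54e-07), but moved the number of genes called from 616 to 1105 (run block 103) for the super-repressor in OCI-Ly3, 24 to 39 (5) in OCI-Ly10, 150 to 314 (32) for IL-6, 144 to 417 (48) for the siRNA and 146 to 260 (77) for the inhibitor. For IL-10 it moved from 1548 to 1912 (1032). The exact sign-flip permutation test gave p = 0.0312 (super-repressor in OCI-Ly3), 0.00195 (IL-10, the smallest it can give) and 0.109 (IL-6), and cannot go below 0.25 or 0.125 with 3 or 4 arrays. Leaving out both 2 h arrays, chosen after seeing the data, gave -0.59 in OCI-Ly3.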
